A study of Mus musculus with 15 samples.

Results

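Oxidative phosphorylation is carried out by 5 protein complexes of the inner mitochondrial membrane. Complex I (NADH dehydrogenase) and complex II (succinate dehydrogenase, which is also an enzyme of the TCA cycle) pass electrons to ubiquinone, complex III (cytochrome bc1) passes them to cytochrome c, and complex IV (cytochrome c oxidase) passes them to oxygen. Complex V (ATP synthase) uses the proton gradient built by complexes I, III and IV to make ATP. Nearly all subunits are encoded in the nucleus and a small number in mitochondrial DNA, and the genes are highest in tissues with many mitochondria, such as heart, slow skeletal muscle and brown fat, which lies around the thoracic aorta of the mouse.

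The genes described here are all nuclear genes whose symbols begin with Nduf, Uqcr, Atp5 or Cox followed by 4 to 8, plus Sdha, Sdhb, Sdhc and Sdhd. This rule matched 94 of the 24982 gene symbols in the count tables. They comprised 37 genes of complex I, 8 assembly factors of complex I (Ndufaf genes), 4 genes of complex II, 8 of complex III, 20 of complex IV, 16 of complex V and Atp5s, which carries the name of the ATP synthase but is not one of its structural subunits. Ndufa4 and Ndufa4l2 were placed in complex IV, where the NDUFA4 protein is found. A filter of at least 10 counts in at least 5 libraries left 90 of them for fold changes. The 4 genes outside it were Cox7b2 and Cox8c, at 0 in every library, Ndufs5, at 0 or 1 count, and Ndufb4c, at 1 to 10 counts with 2 libraries at 10. Just inside it, Cox6a2 had 1 to 2419 counts and reached 10 in 13 libraries, and Atp5s had 42 to 119 counts. Whether the low count of Ndufs5 reflects its expression or the counting was not tested. Mitochondrially encoded subunits were not analysed here.

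RNA-Seq was performed on whole aortas of male C57BL/6 mice 10 months of age, with 1 aorta per library and 5 libraries in each of 3 groups. The mice had a sham operation (control), an orchiectomy, or an orchiectomy and a pellet of dihydrotestosterone (DHT), an androgen that cannot be converted to estrogen. In the paper's account DHT was given together with Aldo-salt, after the orchiectomy. After 2 weeks of recovery from surgery all 3 groups received Aldo-salt over 7 days, so the data hold no mice without it. Aldo-salt is aldosterone by osmotic minipump at 200 µg/kg per day with 0.9% NaCl and 0.2% KCl to drink. The comparisons ask how loss of androgen, and its replacement, changed the aortic transcripts of mice on Aldo-salt.

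Each library held between 8268957 and 13816864 reads that were assigned to genes. Smooth muscle markers (10 of 10 genes tested, among them Myh11 and Acta2) summed to 11996 to 27773 CPM (counts scaled to the library's total after TMM, edgeR's normalization). Brown fat markers (11 of 12 tested, with Zic1 at 0 to 3 counts) summed to 1429 to 5185 CPM in the control group, 1358 to 2477 CPM in the orchiectomized group and 1781 to 4986 CPM in the DHT group, and Ucp1, the uncoupling protein of brown fat, had 5519 to 29402 counts. The library labelled orchiectomized replicate 2 stood apart with a cardiac marker sum (10 of 10 genes tested) of 7496 CPM, against 92.9 to 1529 CPM in the other 14 libraries. It also had the highest endothelial (1544 CPM) and macrophage (1461 CPM) sums of all libraries. Its smooth muscle (11996 CPM) and brown fat (1358 CPM) sums were the lowest, so it differed in more than cardiac markers. In tissue of mixed cells, fewer cells of a type and less RNA per cell cannot be told apart.

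Promoters were available in the RefSeq table (GRCm38.p6) for 74 of the 94 genes. Each is a window from 250 bases before to 50 bases after the start. Some genes have more than 1 window, and a gene was counted if any of its windows held the letters. They were searched on both strands for the letters of 4 sites known from promoters of respiratory genes. The letters GCGCATGCG, from the core of the site of nuclear respiratory factor 1 (NRF1), were in 10 of 74 genes (13.5%) against 1.95% of 27025 genes. The YY1 letters AAGATGGCG were in 8 (10.8% against 1.64%), the ETS letters CCGGAAGT in 5 (6.76% against 4.31%) and the letters of the estrogen-related receptors (ERR), TCAAGGTCA, in 2 (2.70% against 0.466%). Of the 8 YY1 matches, 7 began 11 to 36 bases from the start, inside the transcript. The NRF1 matches were in Atp5g2, Atp5k, Atp5l, Cox6a1, Ndufa8, Ndufa11, Ndufaf4, Ndufaf5, Uqcr11 and Uqcrc1. A match is a run of letters and no evidence of binding. The 250 bases before the start are shown for Ndufaf4, the only gene that passed the threshold between groups, and Cox6a1, the complex IV gene with the most reads per kilobase, both with NRF1 letters, for Uqcrh with ETS letters and for Atp5g3 with ERR letters. The capitals mark the matches, which in Ndufaf4 and Cox6a1 are overlapping matches on both strands. The windows are chr4:24897833-24898082 (plus strand), chr5:115348959-115349208, chr4:116075071-116075320 and chr2:73911327-73911576 (all minus strand), written 5′ to 3′ along the gene.
Ndufaf4: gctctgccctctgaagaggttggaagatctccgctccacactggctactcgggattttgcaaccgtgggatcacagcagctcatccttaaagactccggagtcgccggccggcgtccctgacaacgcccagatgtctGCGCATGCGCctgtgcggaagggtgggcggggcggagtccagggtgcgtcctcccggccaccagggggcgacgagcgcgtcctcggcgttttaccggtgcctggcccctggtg
Cox6a1: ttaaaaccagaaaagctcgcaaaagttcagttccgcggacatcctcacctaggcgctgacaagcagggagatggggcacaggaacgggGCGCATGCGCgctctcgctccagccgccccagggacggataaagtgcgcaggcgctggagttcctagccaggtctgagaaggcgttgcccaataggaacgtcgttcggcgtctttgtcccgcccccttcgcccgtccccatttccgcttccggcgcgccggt
Uqcrh: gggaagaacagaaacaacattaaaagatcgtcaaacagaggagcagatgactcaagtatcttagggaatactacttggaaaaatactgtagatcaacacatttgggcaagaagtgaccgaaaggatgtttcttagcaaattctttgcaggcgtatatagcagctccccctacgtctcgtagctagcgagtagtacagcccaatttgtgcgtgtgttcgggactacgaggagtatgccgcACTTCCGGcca
Atp5g3: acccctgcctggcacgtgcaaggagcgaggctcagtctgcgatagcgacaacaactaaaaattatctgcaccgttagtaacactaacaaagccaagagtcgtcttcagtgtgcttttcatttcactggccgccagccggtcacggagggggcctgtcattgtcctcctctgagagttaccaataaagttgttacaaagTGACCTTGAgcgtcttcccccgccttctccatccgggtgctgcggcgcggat

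The 94 genes together took 1.15% to 2.72% of the reads assigned to genes. Per kilobase of exon, the level over all libraries was highest for Cox6a1 at 769 CPM per kilobase, followed within their complexes by Atp5b at 411, Uqcr10 at 353, Ndufb9 at 298 and Sdhd at 224. The median over the tested genes of a complex was 227 CPM per kilobase in complex III, 177 in complex IV, 175 in complex II, 109 in complex I and 109 in complex V. The complex I assembly factors were far lower, with a median of 10.5 and a highest value of 31.2 for Ndufaf8.

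The genes of all 5 complexes moved together from aorta to aorta, and this spread between mice of a group was larger than the differences between groups. In the control group, replicate 4 was the lowest of the 5 libraries for 84 of the 90 genes, and replicate 3 was the highest for 61. In the orchiectomized group, replicate 3 was the lowest for 89 of 90. The DHT group fell into lower and higher libraries, with replicate 1 or 2 the lowest for 85 of 90 genes. The median gene differed 2.33-fold between the highest and the lowest control library, 2.22-fold between those of the orchiectomized group and 1.71-fold between those of the DHT group. The SD within groups was 0.47 on the log2 scale for the median gene of the 90, against 0.29 for the median of all 14191 genes tested. The steadiest was Cox7a2l, a gene linked to supercomplexes of complexes III and IV, with an SD of 0.24. The most variable was Cox6a2, the striated muscle isoform of a complex IV subunit, with 2.32.

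**Figure D1:**
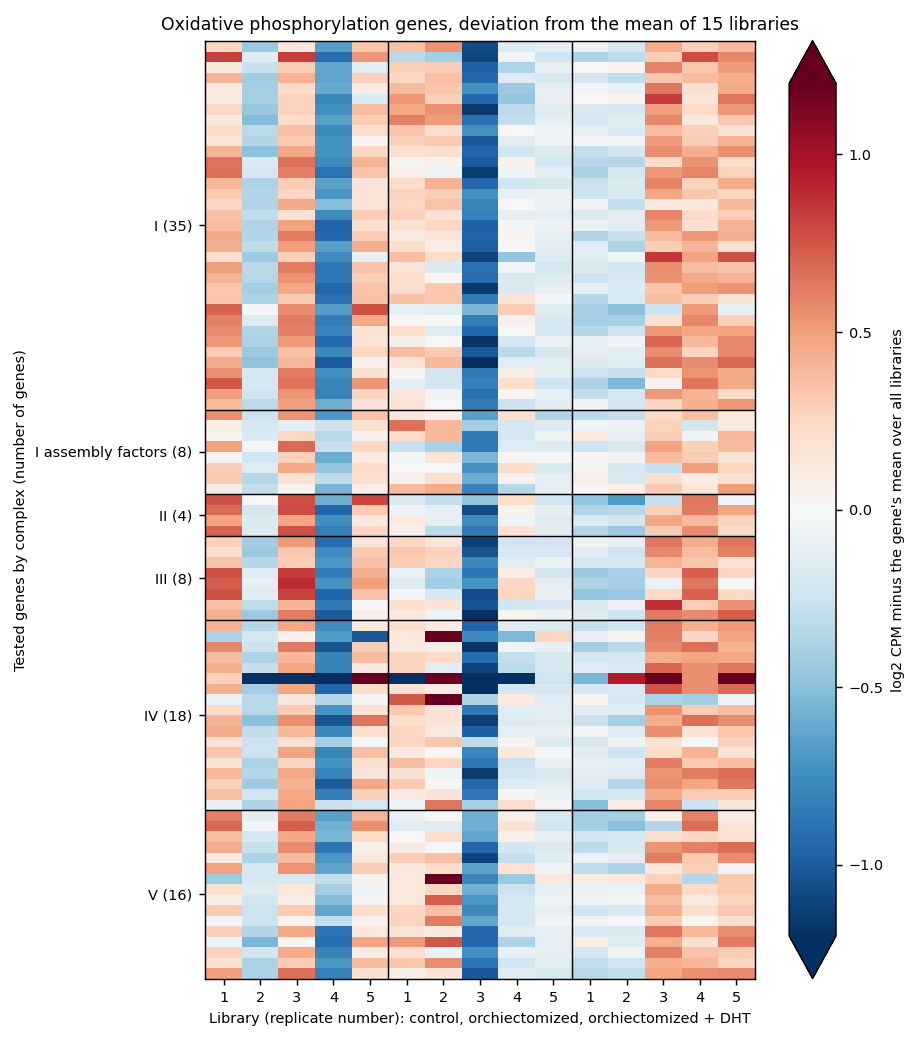
Heat map of the 89 tested subunit and assembly factor genes (rows, grouped by complex, alphabetical within each) in the 15 libraries (columns, in 3 groups of 5 by replicate number). Color is log2 CPM minus the gene's mean over all libraries. Control replicate 4 and orchiectomized replicate 3 are low from complex I to complex V, and a few complex IV and V rows, Cox6a2 among them, are high in orchiectomized replicate 2.

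Highly expressed genes of complexes II to V show this spread. Atp5b, the catalytic beta subunit of the ATP synthase, had 2668, 1613, 2732, 1108 and 2432 CPM in control replicates 1 to 5. It had 1499, 1496, 1101, 1867 and 1420 CPM in the orchiectomized and 1242, 1167, 1297, 2638 and 1851 CPM in the DHT-treated replicates. Control replicates 1, 3 and 5 lay above all orchiectomized libraries, while control replicate 4 was nearly as low as orchiectomized replicate 3.

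Uqcrc1, a core protein of complex III, had 892, 467, 936, 293 and 703 CPM in the control, 493, 402, 286, 556 and 445 CPM in the orchiectomized and 383, 399, 621, 858 and 624 CPM in the DHT-treated libraries. Cox4i1, the general form of complex IV subunit 4, had 859, 509, 891, 379 and 699 CPM in the control, 735, 689, 331, 581 and 573 CPM in the orchiectomized and 532, 552, 988, 871 and 925 CPM in the DHT-treated libraries. In both of these genes 3 control libraries were high and 2 low, and 3 DHT-treated libraries were high and 2 low.

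Sdha, the flavoprotein of succinate dehydrogenase, had 1372, 803, 1367, 537 and 1408 CPM in the control, 713, 662, 578, 934 and 692 CPM in the orchiectomized and 582, 504, 664, 1257 and 789 CPM in the DHT-treated libraries. Here 3 control libraries lay above all orchiectomized libraries, and control replicate 4 lay below them. In the DHT group only replicate 4 was above the highest orchiectomized value.

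**Figure D2:**
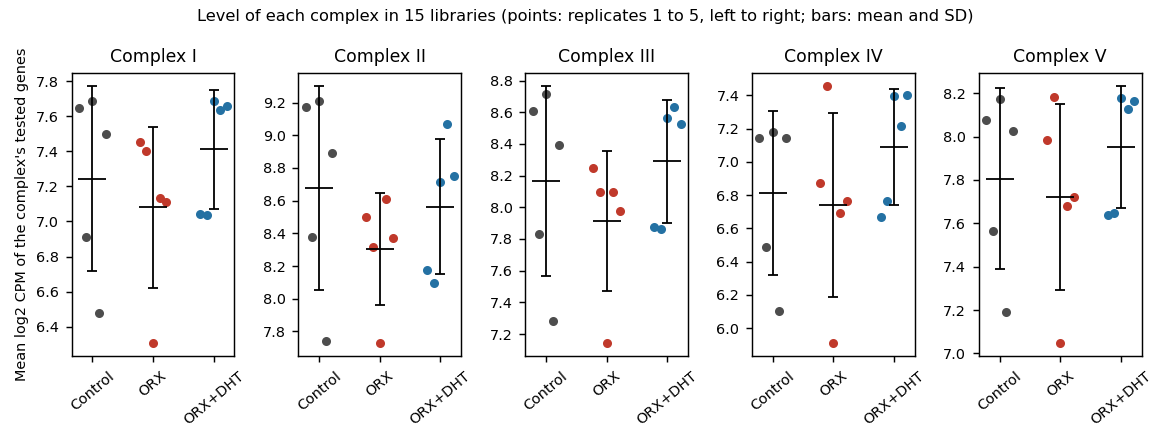
Log2 CPM averaged over each complex's tested genes (y axis, a separate scale per panel) in each library, by group (ORX, orchiectomized). Points are replicates 1 to 5 from left to right, the horizontal bar is the group mean and the whiskers are the SD (n = 5); in every panel the 3 groups overlap and orchiectomized replicate 3 is the lowest point.

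Averaged over its tested genes, complex I had a log2 CPM of 7.24 ± 0.53 (SD, n = 5) in the control, 7.08 ± 0.46 in the orchiectomized and 7.41 ± 0.34 in the DHT group. Complex II was at 8.68 ± 0.62, 8.30 ± 0.34 and 8.56 ± 0.41 in the same order, and complex III at 8.17 ± 0.60, 7.91 ± 0.44 and 8.29 ± 0.39. Complex IV was at 6.81 ± 0.49, 6.74 ± 0.55 and 7.09 ± 0.35, and complex V at 7.81 ± 0.42, 7.72 ± 0.43 and 7.95 ± 0.28. Every difference between 2 group means of a complex was smaller than the larger of the 2 SDs.

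After orchiectomy, against control mice, 73 of the 90 genes had a negative and 17 a positive log2 fold change, with a median of -0.15 on the log2 scale against 0.04 for all genes tested. By edgeR's quasi-likelihood test, at an unadjusted P under 0.01, 1 gene was lower and 0 were higher, whereas 1.12% of all genes tested were lower and 2.11% higher. At an unadjusted P under 0.05 there were 4 of 90, against 12% of all genes. None of the 90 and 0% of all genes passed an adjusted P under 0.05 by this test.

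The gene that passed was Ndufaf4, a complex I assembly factor on chromosome 4 (chr4:24898083-24905001, plus strand, GENCODE M21, GRCm38). It had 59.0, 41.2, 67.2, 34.5 and 49.7 CPM in the control libraries and 34.8, 32.0, 23.1, 37.5 and 37.6 CPM in the orchiectomized libraries. Only control replicate 4 was below the highest orchiectomized values. The log2 fold change was -0.61 (SE 0.20, adjusted P = 0.30 by edgeR). Its unadjusted P did not stay under 0.01 without control replicate 1, 3 or 5 or without orchiectomized replicate 1, 2 or 3. The same held by limma's voom with quality weights and with the replicate number as a block in the model. The log2 fold change was between -0.63 and -0.51 in the 6 fits without a library, -0.48 by voom and -0.58 with the block.

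Among the other genes with P under 0.05, Ndufa10, an accessory subunit of complex I named after its values were seen, had 428, 218, 429, 129 and 349 CPM in the control and 193, 183, 112, 236 and 206 CPM in the orchiectomized libraries, a log2 fold change of -0.74 (SE 0.32, adjusted P = 0.39 by edgeR). For Sdha it was -0.62 (SE 0.28, adjusted P = 0.41 by edgeR). The 4th was Cox4i2, with a positive value described with the isoforms.

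Ordered by complex, the median log2 fold change after orchiectomy was -0.14 for complex I (29 of 35 negative), -0.44 for complex II (4 of 4), -0.19 for complex III (8 of 8), -0.17 for complex IV (13 of 18) and -0.11 for complex V (12 of 16). For the complex I assembly factors it was -0.06 (6 of 8). Uqcrc1 had -0.59 (SE 0.30, adjusted P = 0.45 by edgeR) and Atp5b -0.52 (SE 0.27, adjusted P = 0.45). Cox4i1 had -0.20 (SE 0.27, adjusted P = 0.80).

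These sums rest on few libraries. Without orchiectomized replicate 3 the median of the 90 genes was -0.04 with 51 negative, without control replicate 3 it was -0.08 with 60 negative, and without control replicate 1 it was -0.09 with 62 negative. Without control replicate 4 it was -0.31 with 80 negative, and 4 genes were lower at P under 0.01 (Ndufaf4, Ndufa10, Sdha and Uqcrc2, a core protein of complex III). In that fit 702 of all 14191 genes tested passed P under 0.01 by edgeR, in either direction. Without control replicate 2 it was -0.24 with 77 negative, without orchiectomized replicate 1 it was -0.24 with 80 negative and without orchiectomized replicate 2 it was -0.25 with 87 negative.

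With DHT, against untreated orchiectomized mice, the fold changes lay on the other side of 0, with 81 of 90 positive and a median of 0.28, against -0.02 for all genes tested. These mice share the orchiectomized libraries with the comparison above, so the opposite sign is not separate evidence. None of the 90 genes passed P under 0.01 by edgeR in either direction, although 2.44% of all genes tested were higher and 7.35% lower. At P under 0.05 there were 3 of 90, against 21.2% of all genes. None passed an adjusted P under 0.05, which 4.82% of all genes did.

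The 3 genes with P under 0.05 were Ndufaf4, Cox6a1 and Cox6b2. Ndufaf4 had 35.3, 36.7, 58.6, 51.3 and 54.5 CPM in the DHT-treated libraries, of which 3 lay above every orchiectomized library, and a log2 fold change of 0.52 (SE 0.20, adjusted P = 0.15 by edgeR). Cox6a1, the general form of complex IV subunit 6a, had 612, 466, 237, 407 and 447 CPM in the orchiectomized and 457, 456, 828, 752 and 792 CPM in the DHT-treated libraries. Its log2 fold change was 0.60 (SE 0.28, adjusted P = 0.23 by edgeR), and the groups overlapped through DHT replicates 1 and 2.

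By complex, the median log2 fold change with DHT was 0.30 for complex I (35 of 35 positive), 0.31 for complex II (4 of 4), 0.38 for complex III (8 of 8), 0.30 for complex IV (13 of 18) and 0.17 for complex V (14 of 16). Uqcrc1 had 0.40 (SE 0.30), Cox4i1 0.41 (SE 0.27), Atp5b 0.15 (SE 0.27) and Sdha 0.08 (SE 0.28), with adjusted P values from 0.40 for Cox4i1 to 0.90 for Sdha by edgeR. The 5 genes that were negative in complex IV were Cox6a2, Cox6b2, Cox4i2, Ndufa4l2 and Cox7a2l, with values between -1.54 and -0.00. Without orchiectomized replicate 2, Cox6a2 went from -1.54 to 2.81 and Cox4i2 from -0.28 to 0.49, and limma's voom also gave positive values, 2.10 and 0.19. The median of the 90 genes was 0.17 without orchiectomized replicate 3, with 75 positive, and 0.38 without orchiectomized replicate 2, with 89 positive. Ndufaf4 passed P under 0.01 without DHT replicate 1 (log2 fold change 0.60), and Cox6b2 without orchiectomized replicate 3 (-0.78). In these 2 fits 1203 and 1227 of all 14191 genes tested passed, in either direction.

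**Figure D3:**
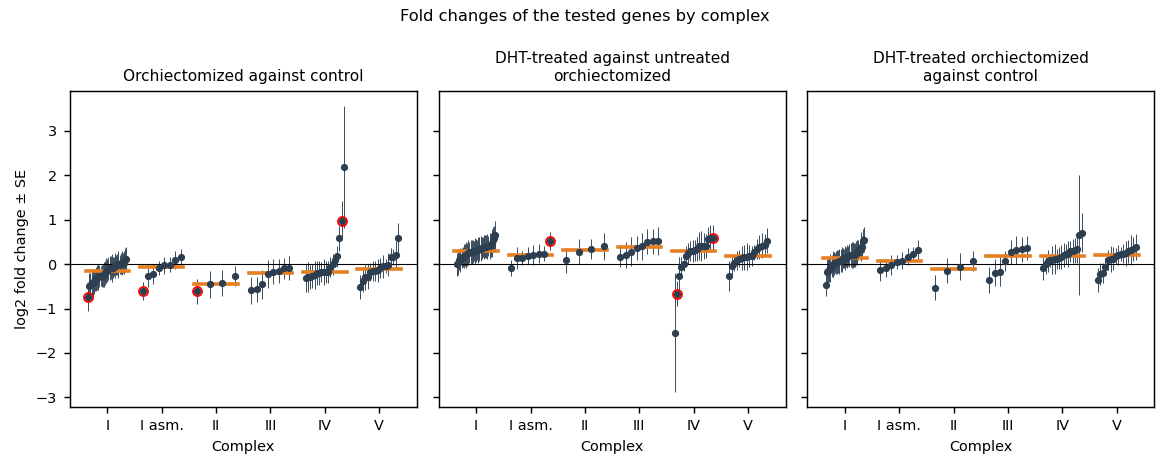
Log2 fold change (y axis) with its SE for each tested gene, by complex (x axis; I asm., complex I assembly factors) and sorted within it, in the 3 comparisons. Orange lines are medians and red circles mark P under 0.05 by edgeR. Most values lie below 0 after orchiectomy (73 of 90) and above 0 with DHT (81 of 90); the widest bar is Cox6a2.

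Between DHT-treated orchiectomized and control mice, 69 of the 90 genes were positive and 21 negative, with a median of 0.13 against -0.00 for all genes tested. None passed P under 0.01 by edgeR, against 1.53% of all genes higher and 2.01% lower, none passed 0.05, against 11.8%, and none an adjusted P under 0.05, against 0.261%. The smallest adjusted P of the 90 was 0.46 by edgeR. The medians were 0.14 for complex I, 0.18 for complex III, 0.18 for complex IV and 0.20 for complex V, and -0.10 for complex II, where Sdha had -0.53 (SE 0.28, 95% confidence interval -1.13 to 0.07, adjusted P = 0.48 by edgeR). For Atp5b it was -0.36 (SE 0.27, adjusted P = 0.62), and for Uqcrc1 -0.19 (SE 0.30, adjusted P = 0.84). Sdha passed P under 0.01 without DHT replicate 4 (-0.80), a fit where 635 of all 14191 genes tested passed. The median of the 90 genes was 0.0001 without control replicate 4, with 45 genes on each side, and lay between 0.05 and 0.23 without each of the other libraries.

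The length of the transcripts moved with the libraries as well. Among genes above a mean log2 CPM of 5, those with at most 800 bases of exon lay 0.83 below their mean over all libraries in orchiectomized replicate 3 and 0.59 below it in control replicate 4, the libraries where the oxidative phosphorylation genes were lowest. They lay 0.50 above it in DHT replicate 3. The sets of all genes by length, here and below, keep only genes above that level and include the oxidative phosphorylation genes among them. The set with at most 800 bases held 53 genes, so its values are not independent of the oxidative phosphorylation genes. The 90 genes were not limited by that level. Between DHT-treated and control mice the median log2 fold change was 0.30 for the 15 of the 90 genes with at most 800 bases, against 0.26 for all genes of that length, and 0.05 for the 21 genes over 3000 bases, against -0.03. With DHT against untreated orchiectomized mice the same 2 length classes had similar medians, 0.36 and 0.30, against 0.27 and 0.01 for all genes. After orchiectomy they were -0.08 and -0.26, against 0.04 and -0.03. With a trend on length taken out of each library, an alternative chosen after seeing the data, the median of the 90 genes between DHT-treated and control mice was -0.01 with 42 positive. The same alternative gave -0.20 after orchiectomy and 0.15 with DHT against untreated orchiectomized mice, with 72 positive. There 1 of the 90 genes, Cox6b2, passed an adjusted P under 0.05, which 945 of all 14191 genes tested did in that fit. The part of transcript length in these results was not tested further.

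Across the libraries within a group, brown fat markers moved with the level of the oxidative phosphorylation genes, apart from orchiectomized replicate 2. In the control group the order of the 5 libraries was the same for both, from replicate 3 (mean log2 CPM of the 90 genes 7.52, brown fat sum 5185 CPM) through replicates 1, 5 and 2 to replicate 4 (6.40 and 1429 CPM). In the orchiectomized group the order was the same for replicates 1, 4, 5 and 3 (7.24, 7.01, 6.99 and 6.23, with sums of 2477, 2460, 1985 and 1532 CPM). Replicate 2 had the highest gene level, 7.37, and the lowest sum, 1358 CPM. In the DHT group replicates 3, 4 and 5 were high for both (7.52, 7.47 and 7.51, with sums of 3048, 4986 and 3790 CPM) and replicates 1 and 2 low for both (6.92 and 6.93, with 1781 and 1870 CPM). Libraries with like sums still differed, since orchiectomized replicates 2 and 3 were the highest and the lowest of their group in gene level. This was not particular to brown fat. The adipocyte marker sum had the same control order, from 8758 CPM in replicate 3 to 3414 CPM in replicate 4. In the DHT group it was 6794, 7708 and 7518 CPM in replicates 3, 4 and 5, against 3947 and 5040 CPM in replicates 1 and 2. In the orchiectomized group it was highest in replicate 4 (6350 CPM) and lowest in replicate 3 (3703 CPM).

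After orchiectomy 11 of 11 tested brown fat markers had negative fold changes, with a median of -0.99. Ucp1 had -0.99 (SE 0.42, adjusted P = 0.38 by edgeR), and Elovl3, a fatty acid elongase of brown fat, passed P under 0.01 with -1.50 (SE 0.49, adjusted P = 0.30 by edgeR). With DHT 9 of 11 were positive, with a median of 0.72, and Ucp1 had 0.82 (SE 0.42, adjusted P = 0.27 by edgeR). Dio2, which makes active thyroid hormone, was lower with DHT than in untreated orchiectomized mice by 0.97 on the log2 scale (SE 0.28, adjusted P = 0.064 by edgeR). Between DHT-treated and control mice 10 of 11 brown fat markers were negative, with a median of -0.16, where 69 of the 90 oxidative phosphorylation genes were positive, with a median of 0.13. The part of brown fat in the fold changes of the oxidative phosphorylation genes was not tested.

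**Figure D4:**
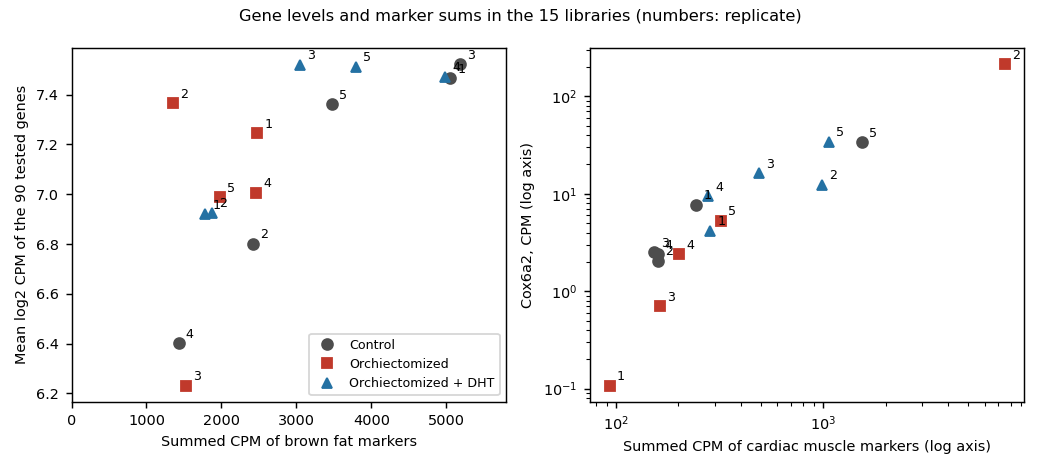
Left, mean log2 CPM of the 90 tested genes (y axis) against the summed CPM of the brown fat markers (x axis); right, CPM of Cox6a2 (y axis) against the summed CPM of the cardiac markers (x axis), both on log axes. Each point is a library, numbered by replicate, with color and shape for the group. On the left orchiectomized replicate 2 has the highest gene level of its group and the lowest sum, and on the right it is alone at the top with 214 CPM of Cox6a2 and 7496 CPM of cardiac markers.

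Several complex IV subunits exist as a general form and a form restricted to certain tissues, and their ratio within a library does not depend on library size. Of these pairs, 6 had both genes tested. Cox6a2, the form of heart and skeletal muscle, had 7.70, 2.06, 2.503, 2.41 and 34.0 CPM in the control libraries, 0.108, 214, 0.699, 2.40 and 5.29 CPM in the orchiectomized libraries and 4.19, 12.4, 16.2, 9.39 and 34.3 CPM in the DHT-treated libraries. The value of 0.108 CPM is a single read. The 214 CPM of orchiectomized replicate 2 is the library with the cardiac marker sum of 7496 CPM, and control replicate 5, with 34.0 CPM, had the second highest sum of 1529 CPM. The log2 fold change after orchiectomy, 2.19 (SE 1.38, adjusted P = 0.53 by edgeR), rested on that library and was -2.16 without it and -1.09 by limma's voom, since the other 4 orchiectomized libraries reached no more than 5.29 CPM. The log2 ratio of Cox6a2 to Cox6a1 was -6.62 ± 1.59, -7.02 ± 3.89 and -5.69 ± 0.88 in the control, orchiectomized and DHT groups (SD, n = 5), and the smallest exact permutation P of its 3 comparisons was 0.28.

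Cox4i2, the form of subunit 4 known from lung and from the response to low oxygen, had 4.89, 5.53, 6.68, 3.89 and 3.01 CPM in the control and 7.00, 24.8, 3.67, 4.33 and 7.65 CPM in the orchiectomized libraries, again highest in orchiectomized replicate 2. Its log2 fold change after orchiectomy was 0.98 (SE 0.44, adjusted P = 0.40 by edgeR), and 0.22 without that library. The DHT-treated libraries had 5.99, 6.58, 9.87, 7.66 and 9.10 CPM, of which 3 were above every control library. Relative to Cox4i1 the log2 ratio was -7.09 ± 0.56 (SD, n = 5) in the control, -6.25 ± 0.87 in the orchiectomized and -6.59 ± 0.17 in the DHT group. Neither difference from control passed the exact permutation test (difference of 0.84 and of 0.50, P = 0.10 for both, adjusted P = 0.37).

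Cox6b2, the form of subunit 6b known from testis, was low in these aortas, at 32 to 151 counts. It had 5.07, 4.21, 5.95, 4.18 and 5.47 CPM in the control, 9.15, 13.3, 4.10, 5.84 and 4.80 CPM in the orchiectomized and 5.48, 4.68, 4.10, 3.95 and 5.17 CPM in the DHT-treated libraries. Only orchiectomized replicates 1 and 2 lay above the highest control value, and the other 3 were within the range of the other groups. With DHT its log2 fold change was -0.66 (SE 0.28, adjusted P = 0.18 by edgeR). The log2 ratio of Cox6b2 to Cox6b1, the general form, was -5.77 ± 0.43 in the control, -5.10 ± 0.45 in the orchiectomized and -6.22 ± 0.60 in the DHT group (SD, n = 5). The ratio was lower with DHT than without it by the exact permutation test before adjustment (difference -1.13, P = 0.016), but not after adjustment over the 18 tests of 6 pairs in 3 comparisons (adjusted P = 0.14).

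Cox8b and Cox7a1 are the forms of striated muscle and brown fat. The log2 ratio of Cox8b to Cox8a was -1.05, -1.03, -0.99, -1.15 and -0.63 in the control, -0.81, -0.88, -0.75, -0.86 and -0.89 in the orchiectomized and -0.96, -1.13, -0.92, -1.08 and -0.98 in the DHT-treated libraries. The DHT-treated libraries were all below the orchiectomized ones, a difference of -0.18 (exact two-sided permutation, P = 0.0079, with nothing smaller possible for 5 against 5 libraries, adjusted P = 0.14). Orchiectomized mice differed from control mice by 0.13 (exact permutation P = 0.20), with overlapping groups. The ratio of Cox7a1 to Cox7a2 was -0.24 ± 0.29, -0.31 ± 0.07 and -0.24 ± 0.33 in the control, orchiectomized and DHT groups (SD, n = 5), and the smallest exact permutation P of its 3 comparisons was 0.66.

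Ndufa4l2, a relative of Ndufa4 known to be induced by low oxygen, stayed between 10.4 and 23.2 CPM in all libraries, against 153 to 382 CPM for Ndufa4. Its log2 ratio to Ndufa4 was -4.32 ± 0.43, -4.01 ± 0.27 and -4.33 ± 0.34 in the 3 groups, and the smallest exact permutation P was 0.14. Across the 18 tests of isoform ratios, the smallest adjusted P was 0.14. Leaving out 1 library brought 6 further comparisons under an unadjusted P of 0.05 by the exact permutation test, among them Cox6a2 to Cox6a1 with DHT against untreated orchiectomized mice without orchiectomized replicate 2 (difference 2.80), Cox6b2 to Cox6b1 after orchiectomy without control replicate 4 (0.84) or orchiectomized replicate 5 (0.81), Ndufa4l2 to Ndufa4 after orchiectomy without control replicate 4 (0.47) and Cox4i2 to Cox4i1 in DHT-treated against control mice without control replicate 2 (0.64) or 4 (0.62). The others were Cox8b to Cox8a after orchiectomy (0.22) and Cox6a2 to Cox6a1 in DHT-treated against control mice (1.58), both without control replicate 5.

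**Figure D5:**
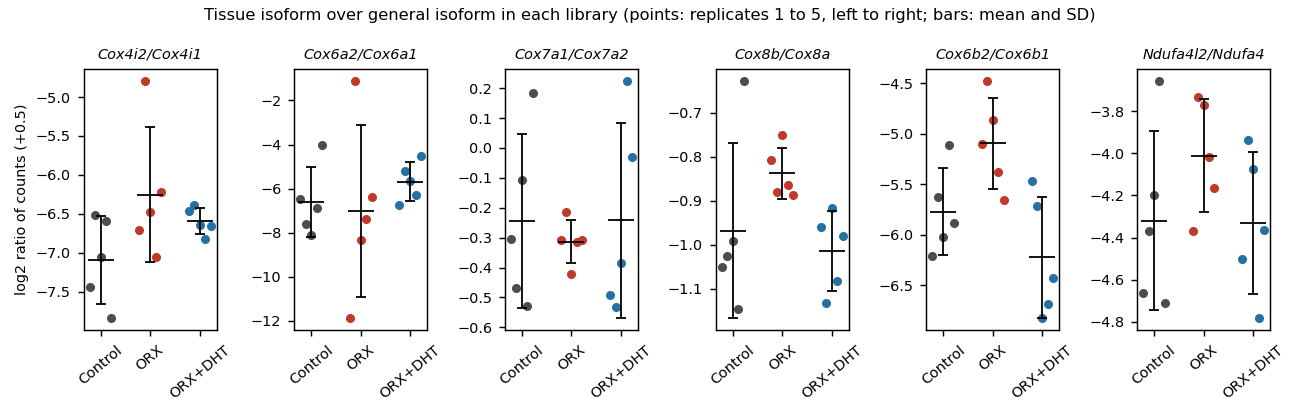
Log2 ratio of the count of the tissue form to that of the general form (y axis, 0.5 added to each count, a separate scale per panel) for 6 pairs in each library (ORX, orchiectomized). Points are replicates 1 to 5 from left to right, with the mean and SD of each group (n = 5). The groups overlap in every panel except Cox8b/Cox8a, where all 5 DHT-treated libraries lie below all 5 orchiectomized libraries; orchiectomized replicate 2 is far above the others for Cox6a2/Cox6a1.

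Atp5g1, which encodes the same membrane ring protein of the ATP synthase as Atp5g2 and Atp5g3 and was named after its values were seen, was also highest in orchiectomized replicate 2. It had 203 CPM in orchiectomized replicate 2 and 38.7 to 83.7 CPM in the other 14 libraries, with a log2 fold change after orchiectomy of 0.59 (SE 0.34, adjusted P = 0.48 by edgeR).

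Other genes of mitochondrial energy metabolism gave the following counts. Of 9 other respiratory chain genes, 8 were negative after orchiectomy (median -0.48), and Gpd2, the mitochondrial glycerol-3-phosphate dehydrogenase, passed P under 0.01 with -1.18 (SE 0.40, adjusted P = 0.31 by edgeR). Cyc1, the cytochrome c1 of complex III, had -0.51 (SE 0.31, adjusted P = 0.52), and Cycs, cytochrome c itself, -0.40 (SE 0.27, adjusted P = 0.56). With DHT the median of these genes was 0.07, and Sqor, which oxidizes sulfide, was lower than in untreated orchiectomized mice by edgeR (-0.43, SE 0.11, adjusted P = 0.036). Of 35 tested assembly genes of the complexes, 30 were negative after orchiectomy (median -0.27, 0 passing) and 30 positive with DHT (median 0.26), where Cox19, a copper protein for complex IV assembly, passed P under 0.01 (0.79, SE 0.25, adjusted P = 0.083 by edgeR). Tmem126b, an assembly factor of complex I, was lower in DHT-treated than in control mice (-0.47, SE 0.12, adjusted P = 0.12 by edgeR).

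The TCA cycle enzymes gave larger medians than the respiratory subunits after orchiectomy, at -0.62 with 16 of 17 negative, and fatty acid oxidation enzymes gave -0.64 with 14 of 15 negative. With DHT they were at 0.29 (16 of 17 positive) and 0.36 (14 of 15). None of these genes passed P under 0.01 in any comparison by edgeR. In DHT-treated against control mice they stayed at -0.29 and -0.24, with 1 of 17 and 0 of 15 positive, against a median of 0.13 for the 90 respiratory genes and -0.10 for the 4 of complex II. The difference was not tested. Mitochondrial carriers were near 0 after orchiectomy (median 0.03, 10 genes) and with DHT (median -0.02), where Slc25a1, the citrate carrier, was higher (1.29, SE 0.38, adjusted P = 0.066 by edgeR). The 16 regulators of mitochondrial biogenesis had medians of -0.29 and 0.13 with 0 passing, and Ppargc1a, the coactivator PGC-1α, had -0.29 (SE 0.39, adjusted P = 0.80) after orchiectomy and -0.12 (SE 0.40, adjusted P = 0.91) with DHT.

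Glycolysis had a median of -0.50 after orchiectomy (12 of 15 negative) and 0.38 with DHT (13 of 15 positive), and the same 2 genes passed P under 0.01 in both comparisons, which share the orchiectomized libraries. Hk2, a hexokinase of muscle and fat, had -1.40 (SE 0.33, adjusted P = 0.23) and 1.16 (SE 0.33, adjusted P = 0.059). Pfkl, a phosphofructokinase, had -1.15 (SE 0.36, adjusted P = 0.29) and 1.17 (SE 0.36, adjusted P = 0.074), all by edgeR.

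Markers of other cells differed between the same libraries. Of 12 skeletal muscle markers, 2 fell after orchiectomy and 6 rose with DHT at P under 0.01, and their sum ranged from 22.2 to 261 CPM in the orchiectomized group, from 65.8 to 707 CPM in the control and from 120 to 624 CPM in the DHT group. Of 12 adipocyte markers, 10 were negative after orchiectomy (median -0.55, 1 passing, Lep) and 9 positive with DHT (median 0.47, 1 passing, Plin4). Smooth muscle markers had medians of -0.07 and 0.41 with 0 passing, endothelial markers 0.14 and -0.40 (2 of 8 lower with DHT), fibroblast markers 0.14 and -0.46 (2 of 8 lower) and macrophage markers 0.25 and -0.80 (4 of 8 lower). Of 8 T cell markers 7 were tested, with 6 higher after orchiectomy and 7 lower with DHT. The T cell sum was 4.31 to 14.4 CPM in the control and 8.18 to 62.9 CPM in the orchiectomized group. Of 8 neutrophil markers 4 were tested, with 4 higher and 4 lower. The neutrophil sum was 0.749 to 2.36 CPM in the control and 6.32 to 32.3 CPM in the orchiectomized group. Genes this low may pass the count filter only through the group where they are high, so these counts are not separate support. Cardiac markers had medians of 1.76 and -1.41 with 0 passing, and these leaned on orchiectomized replicate 2. Its cardiac sum was 7496 CPM, against 92.9 to 320 CPM in the rest of its group. The control group had 152 to 1529 CPM and the DHT group 278 to 1067 CPM. The part of these cells in the levels of the oxidative phosphorylation genes was not tested.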

How the data were processed

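The deposited values are whole-number read counts for each gene symbol and library, which the authors did not normalize. The library kit selected poly(A) RNA, and the submitters' processing notes name STAR, Cufflinks, DESeq2 and mm10. The counting program and annotation are not given in the sources used here. Entries for reads in no gene (6.26% to 14.4%) or in several (1.34% to 1.97%) were left out.

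Counts were analyzed with edgeR 4.0.16 in R 4.3.3, with genes of at least 10 counts in at least 5 libraries, TMM normalization, and a quasi-likelihood fit of the 3 groups to all 15 libraries, without covariates. P values were adjusted by Benjamini-Hochberg over 14191 genes. The biological coefficient of variation was 0.298. Log2 CPM used a prior count of 3. Isoform ratios used 0.5 added to each count and exact permutation tests. Exon lengths and positions came from GENCODE M21. The method was tested on simulated data.

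The genes and the 18 lists were chosen with earlier results of these data known. Named genes were those passing P under 0.01, the highest by CPM of each complex, the isoform pairs, up to 4 passing genes of a list with Ppargc1a, Ucp1, Cyc1 and Cycs, and genes next to the filter. A gene that meets this rule is not reported here. Alternatives were other scalings and filters, models of the compared groups alone or with the replicate number as a block, limma 3.58.1, DESeq2 1.42.0, and leaving out each library. Same-numbered libraries of different groups deviated with correlations of -0.46 to 0.46.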

Additional observations from a re-analysis of the deposited data

Results flagged for a closer look

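Of 78 sets of 5 libraries examined with Dixon's test (levels of complexes, named genes and isoform ratios, by group), 2 held a library far from the others, and chance gives about 1 in 20. The mean log2 CPM of complex III in orchiectomized replicate 3 was 7.14, with the other 4 libraries between 7.98 and 8.25. The log2 CPM of Cox7a1 in orchiectomized replicate 3 was 5.87, with the others between 6.84 and 7.204. Both values come from the library that was lowest for 89 of 90 genes.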

How the results depend on the processing

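The count of genes passing P under 0.01 after orchiectomy was 0 in place of 1 with the replicate block, with limma's voom and with an adjusted P under 0.05, and it ranged from 0 to 4 when a library was left out. With DHT against untreated orchiectomized mice it was 1 in place of 0 with the library-wise length trend, where 1634 of all 14191 genes passed. It was 0 to 1 without a library, and between DHT-treated and control mice 0 to 1 without a library. The same-numbered libraries share only a number, since 4 of 15 pairs had a correlation over 0.1, and under the block the medians of the 90 genes were -0.12, 0.28 and 0.16. The medians kept their sign under every scaling and filter, at -0.20 to -0.12 and 0.15 to 0.33 for the first 2 comparisons. The 3rd ranged from -0.01 with the length trend to 0.16. Depth limits Cox6a2 and Cox6b2, which fall to 1 and 32 counts in the library with the fewest.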
